A study of Homo sapiens with 27 samples.

Results

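The 10 genes described here are ATF4 and 9 of its best known partners and targets in the integrated stress response: the transcription factors DDIT3 (CHOP) and ATF3, the inhibitors and feedback factors TRIB3, CHAC1, SESN2 and DDIT4, and the amino acid enzymes ASNS, PSAT1 and PHGDH. They were chosen by symbol, and their rows in the expression table were found by Ensembl ID. All 10 were among the 34464 genes listed, and all 10 were among the 14611 genes with a mean above 1 FPKM, fragments scaled by transcript length and library size, that were tested. In RNA Frac-Seq, poly(A)+ RNA was sequenced from total, nuclear and cytoplasmic/ER samples of U2OS cells, a human osteosarcoma line, to ask which mRNAs need the nuclear pore basket protein TPR for their export. Cells received a scrambled control shRNA or one of a pair of independent shRNAs against TPR, called TPR A and TPR D. All 3 were delivered by lentivirus, so control cells were infected as well, and detergent was used to separate the fractions. Each of the 9 groups held 3 libraries, 27 in all, and the 3 libraries of a replicate number and shRNA are called a culture here. The study's methods call the replicates biological, without saying whether cultures were infected apart, so p-values measure the spread between these libraries.

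The integrated stress response begins when a kinase that senses amino acid shortage, unfolded protein in the ER, double-stranded RNA or lack of heme phosphorylates the translation factor eIF2alpha. Most translation slows, while the ATF4 mRNA is translated more through its upstream open reading frames, and ATF4 protein then binds C/EBP-ATF response elements and switches on genes for amino acid supply, tRNA charging and, under long stress, cell death. The level of ATF4 mRNA therefore need not follow that of ATF4 protein, and the target mRNAs are the usual readout of the pathway.

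The response element was searched in RefSeq promoter windows on GRCh38.p14, from 250 bases before to 50 bases after each annotated start, as TGATGNAA on both strands. It was found for 3 of the 10 genes (3 of their 16 windows, 18.8%), and for 17 of the 48 other pathway genes that had a window (19 of 73 windows, 26.0%), compared with 1270 of all 35116 windows (3.62%). The 3 matches among the 10 genes are shown with that of PPP1R15B, whose mRNA was called after TPR depletion. That call was kept in 0 of 9 fits that left out 1 culture. No match was found for SHMT2 or LARS1, the other called genes of the pathway, and whether each had a window is not given here. Each sequence is read 5′ to 3′ on the strand of the gene, with the element in capitals; in CHAC1 the element lies on the opposite strand.
ATF3 (chr1:212565206-212565233, plus strand, element at -191 to -184 from the start): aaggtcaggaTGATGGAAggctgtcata
ASNS (chr7:97872459-97872486, minus strand, element at -68 to -61 from the start): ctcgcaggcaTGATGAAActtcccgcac
CHAC1 (chr15:40953252-40953279, plus strand, element at -209 to -202 from the start): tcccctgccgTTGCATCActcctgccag
PPP1R15B (chr1:204412027-204412054, minus strand, element at -227 to -220 from the start): ccgccccggcTGATGCAAcctcacgctg

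A match shows only that these letters are in the window, and no factor's binding was measured. The other 7 genes hold no TGATGNAA in these windows, which says nothing of elements further away or in introns.

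TPR mRNA itself was at 25.3 to 28.2 FPKM in the total libraries of control cells, and at 3.44 to 4.70 FPKM with TPR A and 3.23 to 6.01 FPKM with TPR D. The mesenchymal markers VIM, SPARC, CD44, COL1A1 and RUNX2 had at least 6.25 FPKM in every library and TWIST2 a median of 0.976 FPKM. The epithelial KRT18 was at 130 to 755 FPKM and EPCAM at 1.43 to 6.87 FPKM, and the highest values of ALB (liver), PTPRC (blood cells) and CDH1 (epithelium) were 0.0481, 1.22 and 1.67 FPKM. At the estimated depth, 1 FPKM on 1 kb stood for 32.8 to 90.9 reads per library. The culture labelled control replicate 2 stood apart: genes of the mitochondrial genome took 21.8% of the FPKM of its nuclear library, against 0.774% to 2.42% in the other 8 nuclear libraries, and 0.738% of its total library, against 15.8% to 24.7% in the other 8. Each share is like that of the other fraction, and whether the nuclear and total libraries of this culture were exchanged was not tested. Its total, nuclear and N/C values are therefore uncertain as to fraction. The libraries were kept under their labels, and values without that culture are given beside many of the results. These are bulk samples, in which fewer cells with an mRNA and less of it per cell cannot be told apart.

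In total RNA of control cells ATF4 had the highest mean level of the 10 mRNAs, 228 ± 30.4 FPKM (SD, n = 3), followed by PHGDH at 162 ± 140.0 and ASNS at 124 ± 99.1 FPKM. PSAT1 was at 34.0 ± 17.2, ATF3 at 22.6 ± 6.57, SESN2 at 15.9 ± 2.54 and DDIT4 at 15.9 ± 1.92 FPKM. The lowest were TRIB3 at 8.45 ± 2.27, CHAC1 at 8.09 ± 3.85 and DDIT3 at 6.42 ± 1.71 FPKM. The ranges of neighbours in this order overlapped, except that the 3 DDIT4 values lay above the 3 TRIB3 values.

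**Figure D1:**
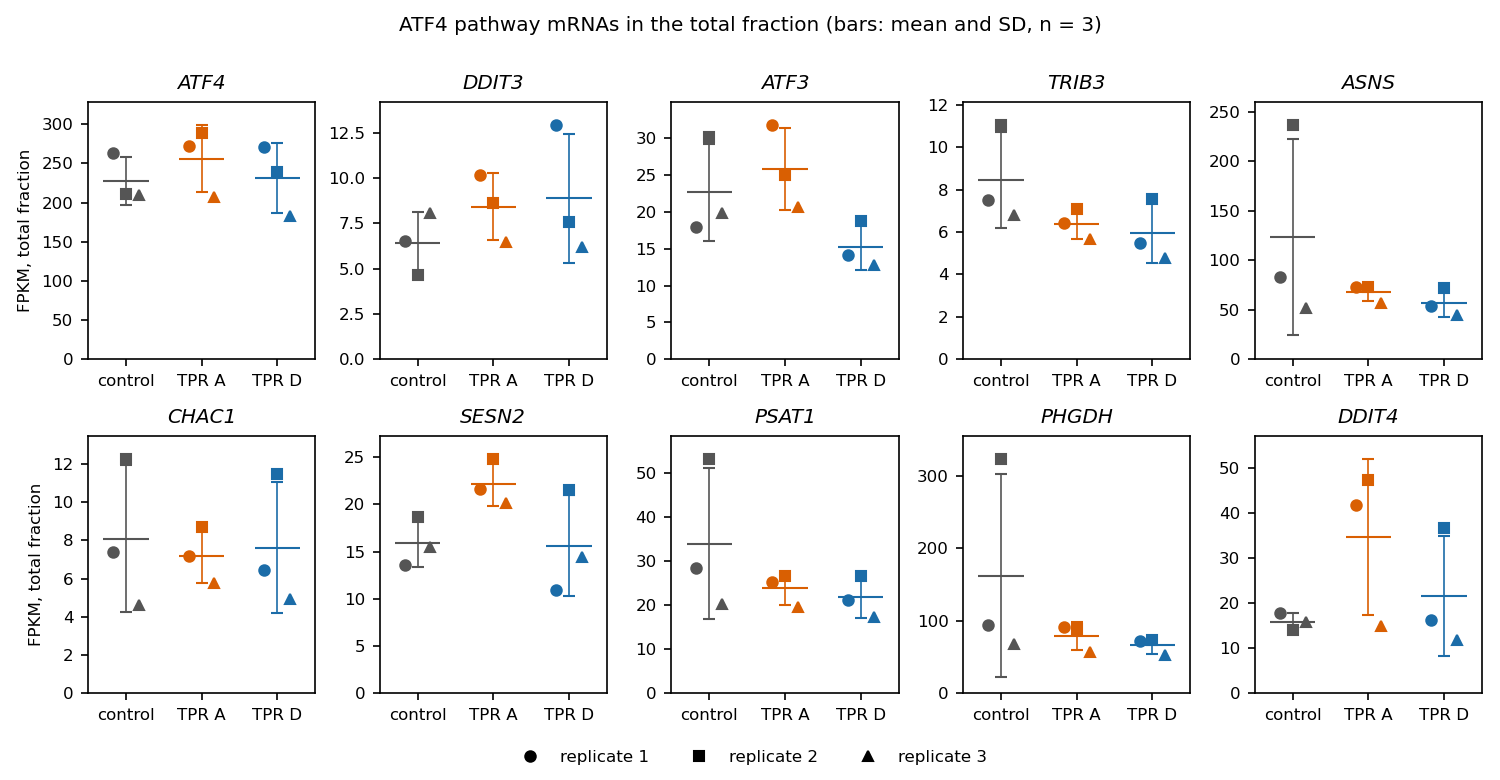
FPKM of each of the 10 mRNAs in the 9 total libraries, by shRNA (x axis); symbols are single libraries, horizontal lines the means and bars the SD of 3 libraries. The library of control replicate 2 is far above the other control libraries for ASNS, PHGDH and PSAT1, and DDIT4 is high in 3 of the 6 libraries with TPR shRNAs.

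None of the 10 mRNAs passed the test in total RNA after TPR depletion, in either direction. With limma and a Benjamini-Hochberg adjusted p under 0.05, 0 of 10 were called with TPR A, where 0.821% of all genes tested were called, 0 of 10 with TPR D (0.753% of all genes) and 0 of 10 for both shRNAs together (1.14%). Without adjustment, 0 of 10 had a p under 0.05 with TPR A (12.6% of all genes), 2 with TPR D (14.6%) and 2 for the shRNAs combined (16.1%), in each case ASNS and PHGDH. With the shRNAs combined 4 of the 10 mRNAs were higher, with a median log2 change of -0.054, compared with -0.011 over all genes. Without control replicate 2, 6 of 10 were higher, with a median log2 change of 0.078. For 0 of the 10 did the 6 total libraries with TPR shRNAs lie wholly above or below the 3 control libraries, which was so for 6.92% of all genes. TPR A and TPR D were compared with the same control libraries, so their values are not independent of each other.

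None of the 3 transcription factors of the group had control and TPR-depleted libraries apart in total RNA. ATF4 (ENSG00000128272, chr22:39915700-39918688 on GRCh37, plus strand) was at 263, 211 and 209 FPKM in the total libraries of control replicates 1, 2 and 3, at 272, 289 and 207 FPKM with TPR A, and at 271, 239.6 and 182 FPKM with TPR D. The groups overlapped, and the lowest and the highest value both belonged to cells with TPR shRNAs. The log2 change was 0.23 with TPR A (95% interval -0.37 to 0.82) and 0.088 with TPR D (-0.51 to 0.68), which leaves room for changes in either direction. DDIT3 (ENSG00000175197, chr12:57910371-57915520, minus strand), which encodes CHOP, a promoter of cell death under long ER stress, was at 6.54, 4.64 and 8.06 FPKM in control cells, 10.2, 8.62 and 6.47 FPKM with TPR A, and 12.9, 7.56 and 6.17 FPKM with TPR D. Its 3 highest values were from TPR-depleted cells and its lowest from control replicate 2, with overlap of the groups. The log2 change was 0.46 with TPR A (-0.16 to 1.07) and 0.50 with TPR D (-0.11 to 1.12), and the combined change was 0.85 in replicate 1 alone and 0.29 in replicates 2 and 3. The gene overlaps MARS1 and MBD6 on the opposite strand by 982 and 1028 bases, and the protein-coding gene ENSG00000285133 on its own strand by 2769 bases. These overlaps are from a later GENCODE release than the one used for the FPKM. Whether ENSG00000285133 was among the genes quantified was not checked. The library kit keeps the strand, but the strand setting of the quantification is not given in the sources used here.

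ATF3 (ENSG00000162772, chr1:212738676-212794119, plus strand), a factor of the same family that acts mostly as a repressor, was at 17.9, 30.2 and 19.8 FPKM in control cells, 31.8, 25.0 and 20.6 FPKM with TPR A, and 14.2, 18.7 and 12.7 FPKM with TPR D. All 3 TPR A libraries were above all 3 TPR D libraries, and control cells lay across both. How many of all genes had TPR A and TPR D apart was not counted. The log2 change was 0.26 with TPR A (-0.35 to 0.88) and -0.48 with TPR D (-1.09 to 0.14). The difference of TPR A from TPR D was 0.74 ± 0.30 (SE) on the log2 scale, with an unadjusted limma p of 0.0204 and a Benjamini-Hochberg adjusted p of 0.490. It was the only one of the 10 mRNAs with an unadjusted p under 0.05 in that comparison, where 7.41% of all genes had one and 0.281% were called by adjusted p (0 of 10 here). In the other fractions ATF3 with TPR D was low in 1 culture, replicate 3, at 10.6 FPKM in the nuclear and 12.7 FPKM in the cytoplasmic/ER library, against 24.5 to 29.3 FPKM in replicates 1 and 2.

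Of the feedback factors, TRIB3 (ENSG00000101255, chr20:343479-378203, plus strand), a pseudokinase that binds ATF4 and holds it back, was at 7.51, 11.0 and 6.80 FPKM in total RNA of control cells, 6.43, 7.08 and 5.66 FPKM with TPR A, and 5.503, 7.54 and 4.79 FPKM with TPR D. The control values reached higher, and the groups overlapped. The log2 change was -0.31 with TPR A (-0.94 to 0.32) and -0.42 with TPR D (-1.05 to 0.21). CHAC1 (ENSG00000128965, chr15:41245160-41248710, plus strand), which breaks down glutathione, was at 7.38, 12.2 and 4.65 FPKM in control cells, 7.17, 8.68 and 5.78 FPKM with TPR A, and 6.46, 11.5 and 4.93 FPKM with TPR D. In every shRNA replicate 2 was the highest and replicate 3 the lowest. The log2 change of CHAC1 was -0.014 with TPR A (-0.95 to 0.92) and 0.0093 with TPR D (-0.93 to 0.94), so that a change of nearly 1 in either direction lies within the interval.

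SESN2 (ENSG00000130766, chr1:28586029-28609002, plus strand), a leucine sensor that restrains the growth kinase mTORC1, was at 13.6, 18.6 and 15.5 FPKM in total RNA of control cells, 21.6, 24.8 and 20.2 FPKM with TPR A, and 11.0, 21.5 and 14.4 FPKM with TPR D. Every TPR A library was above every control library, while the TPR D libraries lay on both sides. The share of all genes with TPR A and control so separated was not counted. The log2 change with TPR A was 0.55 in total RNA (-0.10 to 1.198, adjusted p = 0.487 with limma) and 0.79 in the nuclear fraction (0.14 to 1.44, unadjusted p = 0.0201, adjusted p = 0.281). In the nuclear fraction the control libraries had 19.1, 12.1 and 21.2 FPKM, TPR A 23.9, 36.1 and 29.0 FPKM, and TPR D 17.9, 26.96 and 17.7 FPKM. The lowest control value was that of replicate 2, whose nuclear library stood apart, and without that culture the nuclear change was 0.55 (unadjusted p = 0.132, adjusted p = 0.702 with limma).

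DDIT4 (ENSG00000168209, chr10:74033678-74035794, plus strand), which encodes the mTORC1 inhibitor REDD1, had its highest levels in 3 cultures, all with TPR shRNAs. In total RNA it was at 17.8, 13.9 and 15.9 FPKM in control cells, 41.7, 47.1 and 15.0 FPKM with TPR A, and 16.2, 36.7 and 11.8 FPKM with TPR D. Replicates 1 and 2 of TPR A and replicate 2 of TPR D were high, and the other 3 TPR-depleted cultures lay at or near the control values. The same 3 cultures were the highest in the nuclear fraction (46.6, 54.3 and 49.5 FPKM, with 8.55 to 24.0 FPKM in the other 6) and in the cytoplasmic/ER fraction (43.6, 48.8 and 45.8 FPKM, with 12.4 to 23.7 FPKM in the other 6). The log2 change in total RNA was 1.03 with TPR A (-0.17 to 2.22, adjusted p = 0.475 with limma) and 0.35 with TPR D (-0.84 to 1.55), and it was -0.11 with TPR D when replicate 2 was left out. In the cytoplasmic/ER fraction the replicate 2 cultures with TPR shRNAs were also the highest of all 9 for SESN2, at 50.6 and 44.2 FPKM against 18.3 to 31.8 FPKM in the others. CHAC1 was at 34.7 FPKM and TRIB3 at 24.7 FPKM in TPR D replicate 2, the highest cytoplasmic/ER values of both mRNAs, against up to 19.3 and 19.6 FPKM in the other 8 cultures.

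**Figure D2:**
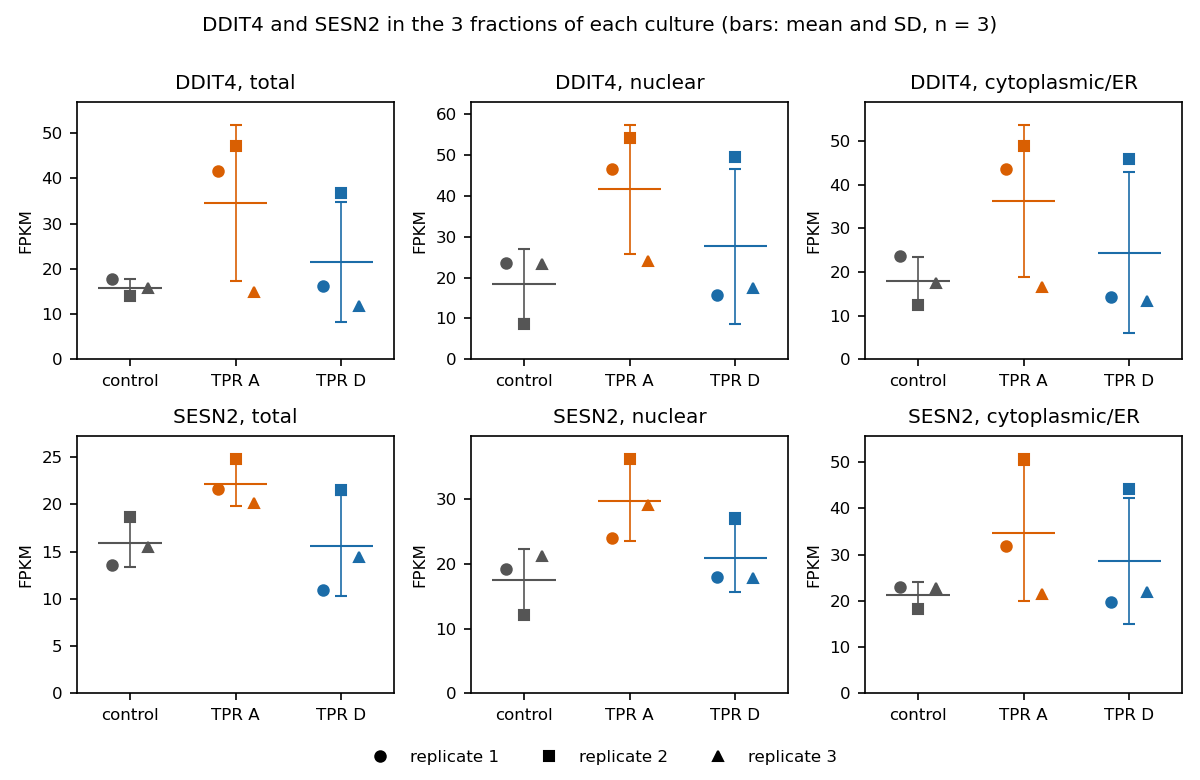
FPKM of DDIT4 (top) and SESN2 (bottom) in the total, nuclear and cytoplasmic/ER libraries of each culture, by shRNA; symbols mark the replicate number, lines the mean and bars the SD of 3 libraries. DDIT4 is high in TPR A replicates 1 and 2 and TPR D replicate 2 in all 3 fractions, and in no control culture.

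The amino acid enzymes had the lowest values relative to control, and these rested on 1 library, that of control replicate 2. ASNS (ENSG00000070669, chr7:97480989-97501854, minus strand), which makes asparagine, was at 83.0, 237 and 51.6 FPKM in the total libraries of control cells, 72.9, 73.1 and 57.1 FPKM with TPR A, and 53.6, 71.9 and 44.2 FPKM with TPR D. PHGDH (ENSG00000092621, chr1:120191034-120286841, plus strand), the first enzyme of serine synthesis, was at 94.8, 323 and 68.6 FPKM in control cells, 91.9, 89.3 and 57.7 FPKM with TPR A, and 73.0, 74.0 and 52.6 FPKM with TPR D. In both, the library of control replicate 2 was above all others, and the other control libraries overlapped with TPR-depleted cells. For both shRNAs together the log2 change of ASNS was -0.65 ± 0.30 (SE; 95% interval -1.27 to -0.021, adjusted p = 0.291 with limma), and -0.065 ± 0.25 without control replicate 2. That of PHGDH was -0.77 ± 0.36 (-1.52 to -0.024, adjusted p = 0.292) and -0.14 ± 0.31 without that culture. PSAT1 (ENSG00000135069, chr9:80912041-80945009, plus strand), the next enzyme of the serine pathway, was at 28.6, 53.2 and 20.2 FPKM in control cells, 25.2, 26.7 and 19.6 FPKM with TPR A, and 21.3, 26.8 and 17.5 FPKM with TPR D. Its log2 change went from -0.40 ± 0.23 with all cultures to -0.057 ± 0.19 without control replicate 2. ASNS overlaps an lncRNA of the same strand, ENSG00000284707, by 20855 bases. That overlap is from a later GENCODE release than the one used for the FPKM. Whether this lncRNA was among the transcripts quantified was not checked. A share of 0.738% of mitochondrial transcripts in that total library, like that of nuclear libraries, moved with these values, and its part in them was not tested.

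The nuclear and cytoplasmic/ER fractions gave no calls among the 10 mRNAs either. In the nuclear fraction limma called 0 of 10 by adjusted p with TPR A (0.903% of all genes), TPR D (0.479%) and both (0.808%). An unadjusted p under 0.05 was reached with TPR A by 2, SESN2 and DDIT4 (12.2% of all genes), and by 0 with TPR D (9.13%) or both (11.8%). Without control replicate 2 neither reached it, with 0.55 for SESN2 (unadjusted p = 0.132 with limma) and 0.75 for DDIT4 (unadjusted p = 0.251). In the cytoplasmic/ER fraction 0 of 10 were called with TPR A (0.623% of all genes), TPR D (0.575%) or both (0.643%), and 0 of 10 had an unadjusted p under 0.05, which 11.6%, 9.42% and 11.4% of all genes had. ATF4 in the cytoplasmic/ER fraction was at 477, 622 and 357 FPKM in control cells, 375, 439 and 416 FPKM with TPR A, and 331, 451 and 262 FPKM with TPR D. Control cells had the highest value and TPR D the lowest, with overlap of the groups. The log2 change of ATF4 there was -0.18 with TPR A (-0.77 to 0.42) and -0.46 with TPR D (-1.05 to 0.14). No gene of the 10 had its 6 TPR-depleted and 3 control libraries apart in the nuclear (6.21% of all genes) or the cytoplasmic/ER fraction (5.39%).

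**Figure D3:**
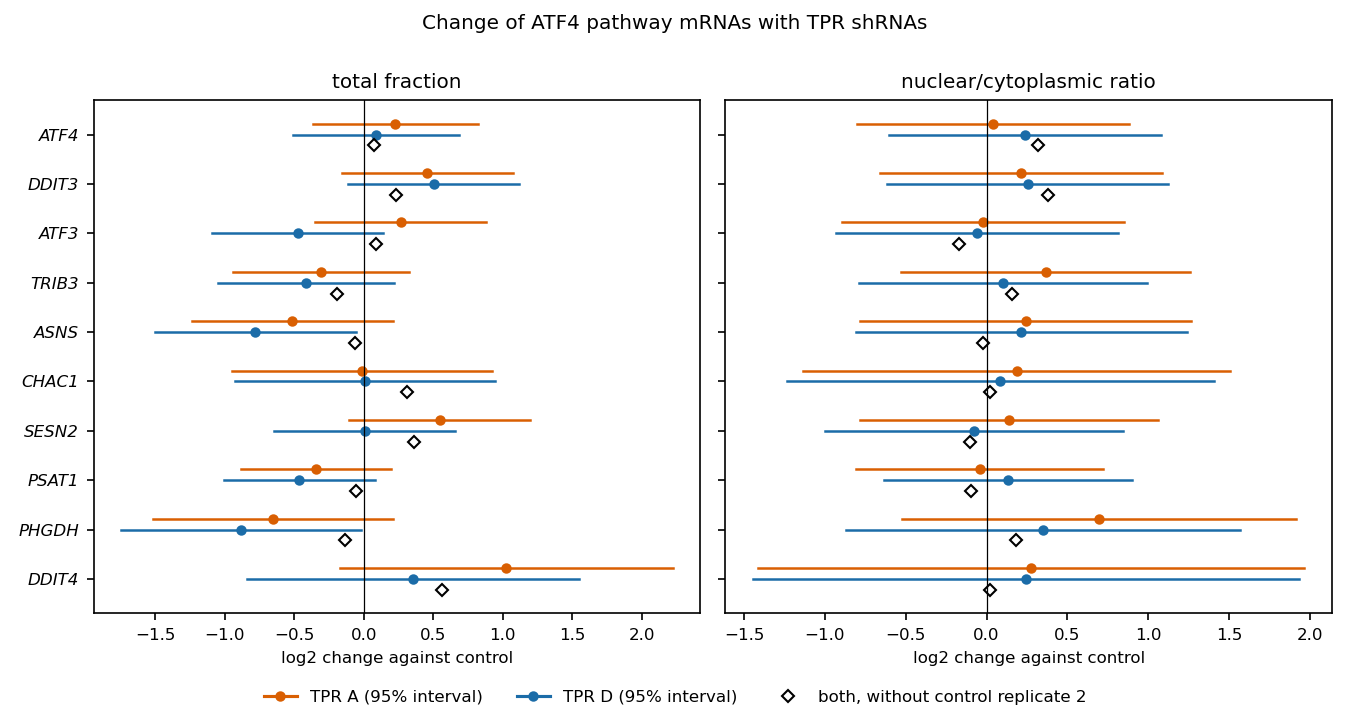
Log2 change of each of the 10 mRNAs against control in total RNA (left) and in the nuclear to cytoplasmic/ER ratio (right), with 95% intervals for TPR A and TPR D from limma; open diamonds show both shRNAs together without control replicate 2. In total RNA the intervals of ASNS and PHGDH with TPR D end just below 0, and their diamonds, for both shRNAs together, lie near 0. With TPR D alone and without control replicate 2 the changes were -0.20 for ASNS and -0.25 for PHGDH.

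The 10 mRNAs differed in how they were spread between the fractions within cells of one shRNA. In control cells the log2 ratio of nuclear to cytoplasmic/ER level, called N/C, was -1.48, -0.94 and -1.48 for ATF4 in replicates 1, 2 and 3. FPKM are scaled within each library, so a ratio above or below 0 is relative to the other mRNAs and does not say which compartment held most of an mRNA. The ratio was -1.01, -1.18 and -0.91 for TRIB3, and 0.78, 0.07 and 0.88 for ASNS. Relative to other mRNAs, ATF4 and TRIB3 were higher in the cytoplasmic/ER libraries of every control culture as labelled, and ASNS in the nuclear ones. For ASNS the ratio was only 0.07 in replicate 2, the culture that is uncertain as to fraction. ATF4 (log2 N/C -1.30 ± 0.29 SE, adjusted p = 0.00121 with limma) and TRIB3 (-1.03 ± 0.31, adjusted p = 0.0104) were the 2 of 10 mRNAs called in control cells, where 39.4% of all genes were called. In TPR A cells 1 of 10 was called, ATF4 (28.4% of all genes), and in TPR D cells ATF4 and TRIB3 (31.7%). With the culture as a block, 5 of 10 were called in control cells (54.5% of all genes), the same 5 in TPR A cells (45.3%) and in TPR D cells (47.7%): ATF4, TRIB3 and CHAC1 with ratios below 0, ASNS and PSAT1 with ratios above 0. The counts with the culture as a block are near the share of all genes, and those of the main fit are below it. With only 10 genes, neither is read as particular to them. Without control replicate 2 the calls in control cells (29.8% of all genes) were ATF4 (log2 N/C -1.48) and ASNS (0.83, adjusted p = 0.0452), while TRIB3 had an adjusted p of 0.0677. The same fit called ATF4 and ASNS (adjusted p = 0.0162) in TPR A cells (32.6% of all genes), and ATF4, TRIB3, ASNS (0.0179) and PSAT1 (0.0278) in TPR D cells (35.0%). TRIB3 also lost its call in control cells without control replicate 1 (adjusted p = 0.0566) and in TPR D cells without TPR D replicate 2 (0.0696) or 3 (0.0681), as did ATF4 in TPR D cells without TPR D replicate 2 (0.0624). Over all 9 cultures, control replicate 2 included under its labels, the ratio was below 0 for ATF4, TRIB3 and CHAC1 in 9 of 9. It was below 0 for ATF3 and SESN2 in 8 of 9. The ratio was above 0 for ASNS and PSAT1 in 9 of 9, for DDIT4 in 8, PHGDH in 7 and DDIT3 in 6 of 9.

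TPR depletion moved the N/C ratio of none of the 10 mRNAs past the threshold. Limma called 0 of 10 by adjusted p with TPR A, TPR D and both together, as it did 0% of all genes, and 0 of 10 had an unadjusted p under 0.05, which 1.47%, 0.821% and 1.72% of all genes had. This fit took the nuclear and cytoplasmic/ER libraries of a culture as independent. It called no gene at all, so the lack of calls does not show that the ratios were unmoved. With the culture as a block, the change of PHGDH was 0.52 ± 0.30 (SE) for both shRNAs (adjusted p = 0.581 with limma). With TPR A it was 0.70 ± 0.34 (unadjusted p = 0.0681, adjusted p = 0.546 with limma). These p-values were the lowest among the 10 mRNAs against control in that fit. ATF4 with both shRNAs was at 0.14 ± 0.21 (adjusted p = 0.811). The shares of all genes in that fit are not given here. The log2 N/C change for both shRNAs together was above 0 for 9 of 10 mRNAs, with a median of 0.18, compared with -0.0030 over all genes. Without control replicate 2 it was above 0 for 6 of 10, with a median of 0.019. With all cultures it was highest for PHGDH (0.52, 95% interval -0.53 to 1.58), whose control cultures had log2 N/C ratios of 0.12, -0.90 and 0.11, TPR A 0.25, 0.23 and 0.93, and TPR D 0.49, -0.38 and 0.26. All 3 TPR A ratios of PHGDH were above the control ratios, while the TPR D ratios overlapped with them. No share of all genes was counted for such a separation of TPR A alone. The low control value was again that of replicate 2, and without that culture the change of PHGDH was 0.18. For ATF4 the change was 0.14 (-0.59 to 0.87) with all cultures and 0.32 without control replicate 2. Taking replicate 1 alone, ATF4 had a change of 0.58, and replicates 2 and 3 gave -0.077. No mRNA had its 6 TPR-depleted N/C ratios apart from the 3 control ones (4.60% of all genes), and TPR A and TPR D did not differ past the threshold for any (0 of 10 by adjusted or unadjusted p, with 0% and 0.335% of all genes).

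**Figure D4:**
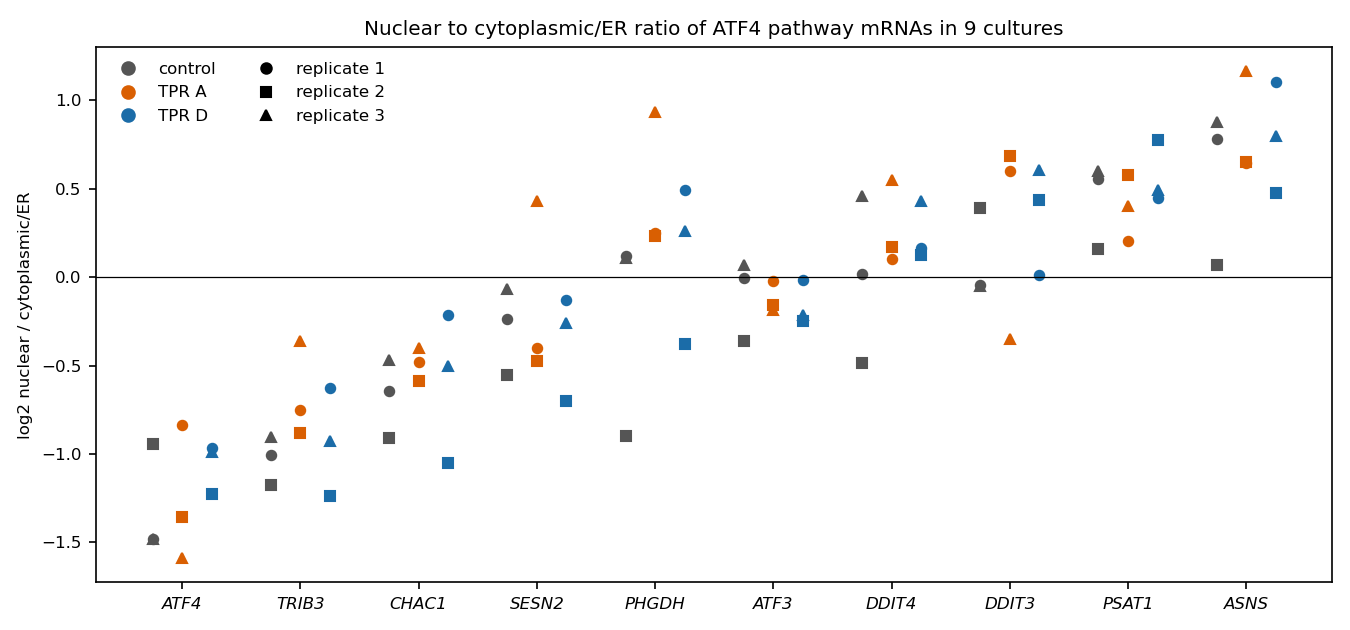
Log2 ratio of nuclear to cytoplasmic/ER level (y axis) of each mRNA in the 9 cultures, in order of the control mean; colours mark the shRNA and symbols the replicate number. ATF4, TRIB3 and CHAC1 lie below 0 and PSAT1 and ASNS above 0 in all 9 cultures, and for each mRNA the 6 TPR-depleted cultures overlap with the 3 control cultures.

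The 10 genes vary in structure, with median pre-mRNA lengths from 2039 nt for ATF4 to 32640.5 nt for PSAT1. The rank correlation between the median pre-mRNA length and the log2 N/C ratio in control cells was 0.39 over the 10 genes, and that with the N/C change for both shRNAs was -0.10. Both are descriptions over 10 genes measured in the same libraries.

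Of 61 other genes of the pathway, listed by role, 60 were tested and STC2, a secreted glycoprotein, was below the minimum. In total RNA 3 of the 60 were called for both shRNAs together, 2 lower (SHMT2 and LARS1) and 1 higher (PPP1R15B), and 14 of 60 had an unadjusted p under 0.05, compared with 1.14% and 16.1% of all genes. With TPR A 0 of 60 were called (0.821% of all genes) and 11 had an unadjusted p under 0.05 (12.6%). With TPR D 1 of 60 was called, SHMT2 (0.753%), and 12 had an unadjusted p under 0.05 (14.6%). The changes were below 0 for 49 of 60, with a median of -0.36, and for 36 of 60 without control replicate 2, with a median of -0.070 and 0 of 60 called. Cytosolic tRNA synthetases, which charge tRNAs, were below 0 in 12 of 13 with all cultures and in 6 of 13 without that culture. The amino acid and one-carbon enzymes were below 0 in 10 of 10 both with it (median -0.54) and without it (median -0.25). All genes share the same control libraries, so genes of a common direction are not separate observations. The share of all genes below 0 is not given here.

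SHMT2, the mitochondrial enzyme that splits serine to feed one-carbon metabolism, changed with TPR D. In total RNA it was at 93.2, 198 and 74.1 FPKM in control cells, 82.3, 83.5 and 74.6 FPKM with TPR A, and 16.5, 28.7 and 17.4 FPKM with TPR D. All TPR D libraries were far below the control and TPR A libraries, which overlapped. How many of all genes had TPR D so separated was not counted. SHMT2 fell by 2.37 ± 0.32 (SE) on the log2 scale with TPR D in total RNA (adjusted p = 0.00091 with limma), and the call was kept in each of the 9 fits that left out 1 culture, with an adjusted p up to 0.0142. The call was lost with only replicates 2 and 3 (adjusted p = 0.177). It also fell with TPR D in the nuclear fraction, by 1.55 ± 0.32 (adjusted p = 0.0273), and in the cytoplasmic/ER fraction, by 1.85 ± 0.32 (adjusted p = 0.0057). The nuclear call was kept in 3 of 9 such fits (adjusted p up to 0.205, without TPR D replicate 3) and the cytoplasmic/ER call in 7 of 9, lost without control replicate 1 (0.0567) and TPR D replicate 3 (0.0935). With TPR A the groups overlapped in all 3 fractions, and TPR A and TPR D differed by 1.96 ± 0.32 in total RNA (adjusted p = 0.00711), a call lost without any 1 of the TPR A cultures or TPR D replicate 1 or 3, with an adjusted p up to 0.0681.

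LARS1, the leucyl-tRNA synthetase, was at 50.1, 109 and 54.6 FPKM in total RNA of control cells, 35.9, 38.7 and 40.4 FPKM with TPR A, and 27.05, 35.9 and 29.6 FPKM with TPR D. The control and TPR-depleted libraries did not overlap, as was so for 6.92% of all genes. The call for both shRNAs (log2 change -0.89 ± 0.22, adjusted p = 0.0434) was kept in only 1 of 9 leave-one-out fits, that without control replicate 3. Without control replicate 2 the log2 change was -0.57 (adjusted p = 0.327). PPP1R15B, a subunit that brings the phosphatase to eIF2alpha and keeps its phosphorylation low in unstressed cells, was at 15.6, 16.1 and 15.9 FPKM in control cells, 24.1, 26.4 and 23.7 FPKM with TPR A, and 26.9, 31.1 and 25.8 FPKM with TPR D. All 6 TPR-depleted libraries were above the controls, and 6.92% of all genes had these libraries apart in either direction. The log2 change was 0.79 ± 0.19 (adjusted p = 0.0435 with limma). That call was kept in 0 of 9 leave-one-out fits, in which the log2 change was 0.76 to 0.82 and the adjusted p 0.0580 to 0.217. In the nuclear fraction PPP1R15B was at 17.1 to 18.9 FPKM in control cells, 18.4 to 23.9 with TPR A and 25.8 to 30.0 with TPR D. Only TPR D was apart from control there, and the share of all genes with such a separation was not counted. In the cytoplasmic/ER fraction the groups overlapped, at 7.05 to 9.45, 5.58 to 11.4 and 7.15 to 12.5 FPKM. PPP1R15A, the stress-induced subunit that ends the response, had a log2 change of -0.074 (-0.45 to 0.30), and 0.17 without control replicate 2.

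**Figure D5:**
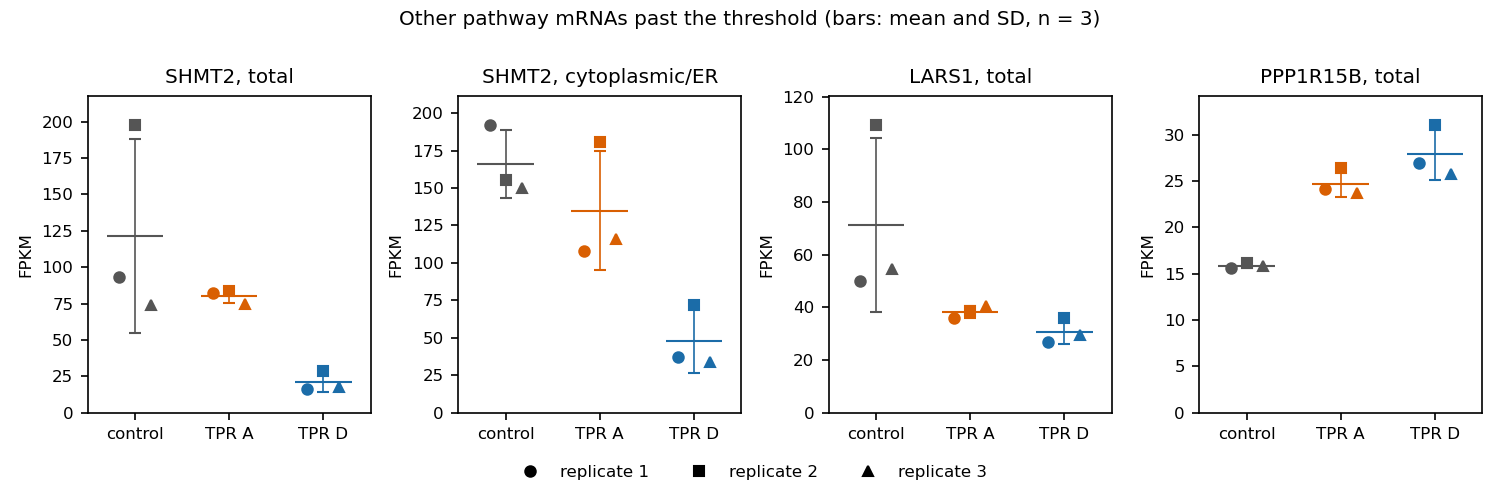
FPKM of SHMT2 (total and cytoplasmic/ER), LARS1 (total) and PPP1R15B (total) in each library, by shRNA; symbols mark the replicate number, lines the mean and bars the SD of 3 libraries. SHMT2 is low with TPR D and not with TPR A, while LARS1 is lower and PPP1R15B higher with both.

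The other roles held no call in total RNA for both shRNAs together. Of the 4 eIF2alpha kinases the highest log2 change was that of EIF2AK3 (PERK, the sensor of unfolded protein in the ER), 0.50 (0.032 to 0.97, adjusted p = 0.275 with limma), and the lowest that of EIF2AK1 (HRI, the heme sensor), -0.39 (-0.87 to 0.097). The 8 subunits of eIF2 and eIF2B ranged from -0.40 for EIF2B1 (adjusted p = 0.111 with limma) to -0.057 for EIF2S2. Without control replicate 2 the number below 0 went from 8 to 3 of 8, with a median of 0.045. EIF2B1 was then still at -0.32 (adjusted p = 0.478) and EIF2S2 at 0.097. In total RNA EIF2B1 was at 57.5 to 73.3 FPKM in control cells, 42.4 to 48.1 with TPR A and 41.0 to 47.4 with TPR D. Its control and TPR-depleted libraries did not overlap, as was so for 6.92% of all genes. Amino acid transporters ranged from -1.14 for SLC1A5, a glutamine carrier (adjusted p = 0.0810), to 0.085 for SLC7A11, the cystine carrier. SLC1A5 was at 351, 1026 and 253 FPKM in control cells, and without control replicate 2 its log2 change was -0.58 (adjusted p = 0.562) and the median of the transporters went from -0.47 to -0.14. Transcription factors that act with ATF4 ranged from -0.39 for ATF5 to 0.27 for NUPR1, and tRNA synthetases from LARS1 to WARS1 at 0.028. Without that culture ATF5 was at 0.0051, NUPR1 at 0.58 and WARS1 at 0.45. Enzymes ranged from SHMT2 to MTHFD2 at -0.16, secreted and other targets from SQSTM1 at -0.40 to VLDLR at 0.24, and XPOT, the export receptor of tRNAs, was at -0.33. Those without control replicate 2 were -0.071 for MTHFD2, -0.18 for SQSTM1, 0.56 for VLDLR, -0.46 for XPOT, -0.63 for EIF2AK1 and 0.42 for EIF2AK3. For the N/C ratio 0 of the 60 were called with TPR A, TPR D or both, where 0% of all genes were, and 0 of 60 had an unadjusted p under 0.05 with TPR A, TPR D or both (1.47%, 0.821% and 1.72% of all genes).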

How the data were processed

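Poly(A)+ RNA of 27 libraries (9 groups of 3) was analysed. The authors ran Salmon on the coding and lncRNA transcripts of Gencode v.19 (hg19 per the labels). Gene values were made with tximport, and the deposited table gives FPKM of 34464 genes. DESeq2 was used by the authors for fold changes. Read counts were not used here, so count models were not run, and 0 other value columns were present. Depth was estimated from steps of 1 read in low values.

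Median-of-ratios factors (0.954 to 1.06) rescaled the FPKM, to which 0.1 was added before taking the log2, so that changes of low mRNAs are understated. The 14611 genes with a mean above 1 FPKM, outside the mitochondrial genome (13 genes), entered a linear model of all libraries (R 4.3.3, limma 3.58.1, functions lmFit, contrasts.fit and eBayes with a trend), with Benjamini-Hochberg adjustment over all genes and a threshold of 0.05. Levels are FPKM as deposited and changes are on the log2(FPKM + 0.1) scale. The N/C change is the log2 nuclear to cytoplasmic/ER ratio with a TPR shRNA minus that in control cells. The fit of TPR A against control in total RNA was run on simulated data with independent libraries and large added changes. That run does not cover the N/C fits, ties between libraries or smaller changes. Coordinates and overlaps are from GENCODE release 44 placed on GRCh37, where 32776 IDs were matched and 1688 were not. Python 3.11.15, numpy 2.4.6, pandas 2.3.3, scipy 1.17.1 and matplotlib 3.10.9 were used.

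The members and lists were chosen with earlier results of these data known. Named are the 10 genes, TPR, markers, and of the other pathway genes those called against control and the highest and lowest change in total RNA of each role. Deviations of same-numbered cultures from their group means correlated at 0.137 to 0.324 between control and TPR A in total RNA. Between TPR A and TPR D they correlated at 0.131 to 0.266 in nuclear and 0.398 to 0.597 in cytoplasmic/ER samples. The other comparisons were not over 0.1 in each of 3 pairs, though TPR A and TPR D in total RNA reached 0.513. The main fit held no term for replicate or culture. Alternatives were FPKM as deposited, pseudocounts of 1 and 0.01, no minimum, a minimum mean of 5 FPKM, leaving out each culture, the replicate block, the culture as a block, no trend, and only control and 1 shRNA. Only replicates 2 and 3, the values within replicate sets (labels of replicate 1 are written in another style) and the N/C contrast in TPR A and TPR D cells were added after seeing the data.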

Additional observations from a re-analysis of the deposited data

Results flagged for a closer look

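SHMT2 in total RNA had different changes with the TPR shRNAs: the level with TPR A was 1.96 higher than with TPR D on the log2 scale (limma test of the difference, adjusted p = 0.00711). The 3 TPR D libraries were at 16.5 to 28.7 FPKM and the 3 TPR A libraries at 74.6 to 83.5 FPKM.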

How the results depend on the processing

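The count of the 10 mRNAs called stayed at 0 under every alternative run for each comparison of TPR shRNAs with control and of TPR A with TPR D, the replicate block included, which raised the calls among all genes in total RNA from 120 to 271 with TPR A, 110 to 265 with TPR D and 166 to 385 for both. In control cells the count called between nucleus and cytoplasm/ER was 2, and it was 5 with the culture as a block, 0 with only replicates 2 and 3, 2 with the replicate block, and 1 to 2 when a culture was left out (1 without control replicate 1). The changes that turned direction were not past the threshold. Leaving out a culture gave ranges of -0.25 to 0.084 for ATF3 and -0.32 to 0.31 for CHAC1 in total RNA with both shRNAs, -0.97 to 0.067 for ASNS with TPR A, and -0.24 to 0.23 for SESN2 and -0.11 to 0.70 for DDIT4 with TPR D. For the N/C change the ranges were -0.17 to 0.042 for ATF3, -0.024 to 0.38 for ASNS, -0.12 to 0.14 for SESN2 and -0.094 to 0.12 for PSAT1. CHAC1 in total RNA was 0.067 with a minimum of 5 FPKM and 0.028 with only replicates 2 and 3, the same set that gave -0.077 for the N/C change of ATF4 and -0.035 for ATF3 in total RNA with TPR A. SESN2 in total RNA with TPR D was -0.069 with FPKM as deposited and -0.069 with no minimum. The cause was not tested. With 3 libraries a group, the 95% interval of the change with TPR A in total RNA was -0.88 to 0.20 for PSAT1, the narrowest, and -0.17 to 2.22 for DDIT4, the widest. Changes within these intervals remain possible. The intervals are not adjusted for the number of genes, and the smallest change that could be called was not worked out.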
